A study of Mus musculus with 19 samples.

Results

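Lipoprotein lipase, hepatic lipase, endothelial lipase and the proteins that anchor, activate, inhibit or fold them were examined in 19 liver RNA sequencing libraries. The members were 9 genes listed by name for their role: Lpl, Lipc, Lipg, Angptl4, Angptl8, Gpihbp1, Apoc2, Apoa5 and Lmf1. All 9 were found among the 35498 genes summed per library, and all 9 were among the 13594 genes that passed the filter on low counts. They were selected by role, but the measured level of Lpl was already known when they were listed, in WSD against CTRL and in WSD+beta-Glucan against WSD. Every contrast of Lpl that includes a group given WSD is therefore described with no test.

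The livers came from male mice labelled C57Bl/J6, and every label gives 24 weeks. There were 4 libraries of WSD+beta-Glucan, 5 of WSD, 5 of CTRL+beta-Glucan and 5 of CTRL, and the labels do not spell WSD out or say how or for how long beta-Glucan was given. Whether each library comes from its own mouse is not stated, so a p-value here reflects how the libraries of a group vary, and that variation may be partly technical. Each library held between 17253823 and 23450232 estimated reads. Replicates 1 and 2 of CTRL+beta-Glucan and replicate 1 of WSD+beta-Glucan were set apart by their titles and not by their levels. These titles carry S numbers that may point to another sequencing sheet. Values are given with and without these libraries where this changes a result, and below they are called the libraries that stood apart. No WSD or CTRL library is among these 3.

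The extracellular lipases release fatty acids from triglyceride and phospholipid carried in lipoproteins. Lipoprotein lipase is made mainly by fat, muscle and macrophages, needs Lmf1 to fold in the endoplasmic reticulum, and is carried to the capillary wall by Gpihbp1. Apoc2 is its obligatory cofactor and Apoa5 raises its activity, whereas Angptl4 unfolds it and Angptl8 acts in a complex that blocks it after feeding. In the adult liver, hepatic lipase (Lipc) is the main enzyme of the family and is made by hepatocytes, while endothelial lipase (Lipg) acts mostly on high-density lipoprotein phospholipid. Hepatocytes also secrete Apoc2, Apoa5, Angptl4 and Angptl8 into blood.

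Lpl (ENSMUSG00000015568) lies at chr8:68880491-68907448 and Lipc (ENSMUSG00000032207) at chr9:70798128-70952226 of GRCm38, the build of the annotation used for names. Both code for a lipase of one family, and the bases around their active-site serine are shown because these 2 genes did not move together. The stretches are bases 454 to 498 of the 1422 coding bases of Lpl-201 and bases 484 to 528 of the 1530 coding bases of Lipc-201, counted from the A of the start codon. Capitals mark the codons for glycine, tyrosine, serine, leucine and glycine. The stretches have 32 of 45 bases in common, and 14 of the 15 bases in capitals.
Lpl-201: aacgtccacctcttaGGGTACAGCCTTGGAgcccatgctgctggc
Lipc-201: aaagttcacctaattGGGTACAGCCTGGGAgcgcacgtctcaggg

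RefSeq promoter windows of GRCm38.p6 were at hand for 2 starts of Lipc, each running from 250 bases before to 50 bases after the start. They are shown because nearly all reads of Lipc were assigned to the transcript of one of them and none to those of the other. Lipc-201, which starts in the downstream window (chr9:70934759-70935058, minus strand), took 96.9% of the estimated reads of the gene. Lipc-202, whose annotated start lies in neither window, took the other 3.06%. Lipc-203 and Lipc-204, which start in the upstream window (chr9:70952172-70952471, minus strand), were listed at 0 reads in all 19 libraries. Capitals mark AGGTCA, the half-site bound by many nuclear receptors, or its reverse complement TGACCT.
Lipc downstream window: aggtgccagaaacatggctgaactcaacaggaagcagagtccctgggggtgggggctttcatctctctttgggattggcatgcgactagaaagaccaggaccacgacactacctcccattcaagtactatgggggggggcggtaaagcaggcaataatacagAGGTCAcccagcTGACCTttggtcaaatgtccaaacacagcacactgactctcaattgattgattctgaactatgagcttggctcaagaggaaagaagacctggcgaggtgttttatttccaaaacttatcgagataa
Lipc upstream window: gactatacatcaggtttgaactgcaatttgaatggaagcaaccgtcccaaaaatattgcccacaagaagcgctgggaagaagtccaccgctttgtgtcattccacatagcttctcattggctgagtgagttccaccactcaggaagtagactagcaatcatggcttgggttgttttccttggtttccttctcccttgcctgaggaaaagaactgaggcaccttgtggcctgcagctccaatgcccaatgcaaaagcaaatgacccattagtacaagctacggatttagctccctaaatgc

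The downstream window held the half-site 2 times, 88 and 76 bases before the start, and the upstream window did not hold it. Of 32851 mouse windows of this length, 16.3% held AGGTCA on either strand. The search covered 4 motifs on both strands, which were TATAAA (in 13.6% of all windows), CACGTG (7.15%), GTTAAT (7.1%) and AGGTCA, and none shares letters with another in the Lipc windows. Windows were at hand for 5 of the 9 members. Those of Angptl8 and Lmf1 held none of the 4 motifs, and those of Apoa5 held TATAAA and CACGTG. The window of Apoc2 also held the half-site 2 times, 115 bases before and 42 bases after the start, and GTTAAT 89 bases before it. That start is the one of Apoc2-203, which took 2.08% of the Apoc2 reads, against 97.4% for Apoc2-201. The windows of Apoa5 overlap and share their motif copies. The only transcript assigned to their starts was Apoa5-202, with 6.985% of the Apoa5 reads. The motif matches describe letters and not binding.

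Lpl was far higher in WSD livers than in CTRL livers, and the level in WSD+beta-Glucan livers lay between. Levels are CPM, estimated reads scaled to library size, with library sizes adjusted by the trimmed mean of M values (TMM). The WSD+beta-Glucan libraries held 90.8, 80.6, 80.4 and 51.8 CPM, and the WSD libraries held 175, 179, 158, 196 and 184 CPM. The CTRL+beta-Glucan libraries held 12.8, 12.7, 11.2, 9.64 and 9.15 CPM, and the CTRL libraries held 14.6, 7.62, 12.3, 9.05 and 11.7 CPM. Neither of the groups given WSD overlapped any other group, whereas CTRL+beta-Glucan and CTRL overlapped throughout. The log2 fold change was 4.01 ± 0.17 (SE) in WSD against CTRL and -1.23 ± 0.16 in WSD+beta-Glucan against WSD, given as descriptions because these contrasts were known when the gene was listed.

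WSD+beta-Glucan livers had 6.86 times the Lpl level of CTRL+beta-Glucan livers, a log2 fold change of 2.78 ± 0.17, also given with no test because the WSD+beta-Glucan libraries are shared with the known contrast. In CTRL+beta-Glucan livers Lpl averaged 11.1 ± 1.69 CPM, against 11.1 ± 2.76 CPM in CTRL livers (SD, n = 5 each), and did not pass the test (edgeR, adjusted p = 0.999). The difference between the beta-Glucan effect in WSD and that in CTRL was -1.23 ± 0.23 on the log2 scale, given with no test because it draws on the known contrast in WSD. Without the 3 libraries that stood apart, Lpl in WSD+beta-Glucan against WSD was -1.33 ± 0.18.

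**Figure D1:**
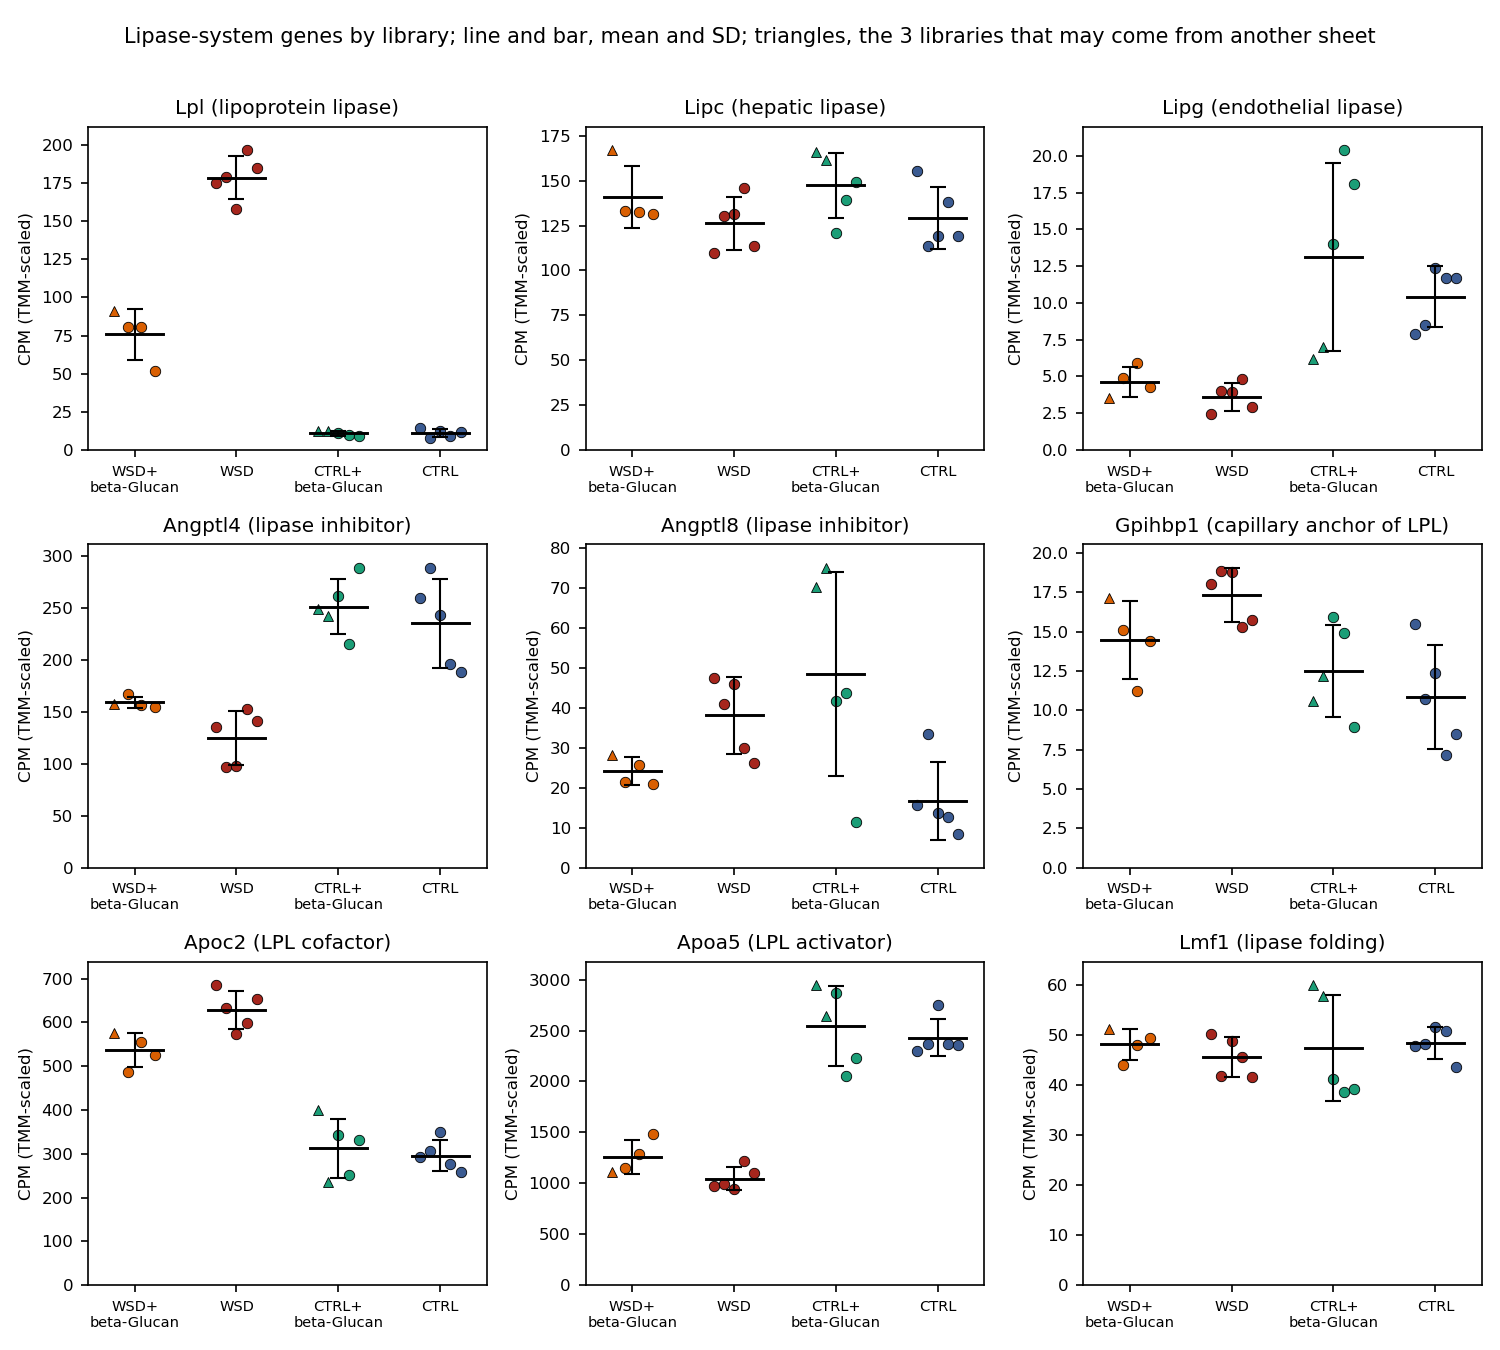
TMM-scaled CPM (vertical axes, linear and starting at 0) of each of the 9 genes in every library, by group; lines and bars give the mean and SD, and triangles are the 3 libraries that stood apart. Lpl lies between 158 and 196 CPM in WSD libraries and between 51.8 and 90.8 CPM in WSD+beta-Glucan libraries, above every library without WSD.

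Markers of macrophages, one of the cell types that make lipoprotein lipase, moved with Lpl. The summed level of 10 macrophage markers ran between 173 and 271 CPM in WSD+beta-Glucan, between 414 and 537 CPM in WSD, between 35.1 and 94.1 CPM in CTRL+beta-Glucan and between 37.7 and 82.5 CPM in CTRL. All 10 were higher in WSD than in CTRL by the same test, and 3 of the 10 were lower in WSD+beta-Glucan than in WSD. Of all genes tested, 26.0% were higher in the first contrast and 0.302% lower in the second. The lists were chosen with earlier results of these data known, so these counts are a description only. Gpnmb, a marker of lipid-laden macrophages, averaged 30.6 CPM in WSD+beta-Glucan and 88.6 CPM in WSD, against 0.315 CPM in CTRL+beta-Glucan and 0.159 CPM in CTRL. Of 6 Kupffer cell markers, 3 were higher and 1 was lower in WSD than in CTRL, and none passed in WSD+beta-Glucan against WSD. The rise in WSD was not particular to macrophages, since 6 of 8 stellate cell markers were also higher. None of the stellate cell markers passed in WSD+beta-Glucan against WSD. In bulk tissue fewer cells of a type and less RNA per cell cannot be told apart, and the part of macrophages in the Lpl level was not tested.

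Fat and muscle are the other main sources of lipoprotein lipase. The fat markers Adipoq, Plin1, Lep and Retn summed to 22, 16, 1 and 7 reads over all 19 libraries, and Ucp1 to 1 read. Of 5 muscle markers Myh6 was at 0, and Myh1, Ckm and Acta1 summed to 1, 10 and 16 reads. Tnnt2 had 289 reads, with its highest levels at 6.12 CPM in WSD+beta-Glucan replicate 2 and 2.96 CPM in CTRL replicate 4. Of the white and brown fat markers, Cfd and Cidea were the exceptions, with 51.8 and 48.9 CPM in WSD+beta-Glucan, 31.0 and 36.2 CPM in WSD, 0.678 and 0.756 CPM in CTRL+beta-Glucan and 1.46 and 1.71 CPM in CTRL.

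**Figure D2:**
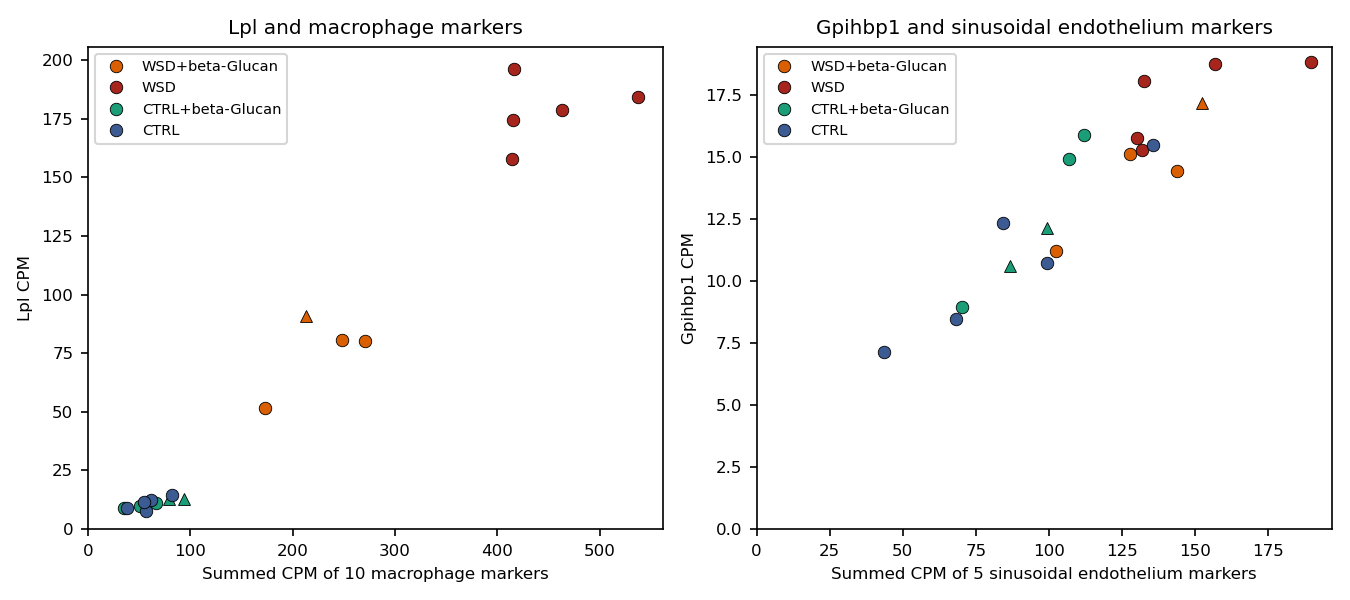
Lpl against the summed CPM of 10 macrophage markers (left) and Gpihbp1 against the summed CPM of 5 sinusoidal endothelium markers (right), 1 point per library, coloured by group, with triangles for the 3 libraries that stood apart. On the left the WSD+beta-Glucan libraries, at 51.8 to 90.8 CPM of Lpl, sit between the WSD libraries and the groups without WSD on both axes.

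Hepatic lipase differed little between groups. Lipc stood at 167, 133, 133 and 131 CPM in WSD+beta-Glucan livers and at 110, 130, 132, 146 and 114 CPM in WSD livers. It stood at 166, 161, 121, 139 and 150 CPM in CTRL+beta-Glucan livers and at 156, 114, 119, 138 and 119 CPM in CTRL livers. All 4 groups overlapped. The log2 fold change was -0.03 ± 0.11 in WSD against CTRL (edgeR, adjusted p = 0.814), but 0.43 ± 0.10 with library totals in place of TMM (adjusted p = 0.00107). The median of all genes was -0.04 with TMM and 0.43 with library totals, so Lipc lay close to it under both scalings. For WSD+beta-Glucan against WSD the value was 0.16 ± 0.12 (edgeR, adjusted p = 0.524), and 0.07 ± 0.12 without the 3 libraries, among them the highest of the group at 167 CPM.

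Endothelial lipase was a low transcript that fell with WSD whether or not beta-Glucan was given. Lipg was at 3.51, 4.93, 5.88 and 4.25 CPM in WSD+beta-Glucan livers and at 2.44, 4.004, 3.94, 4.85 and 2.93 CPM in WSD livers. CTRL+beta-Glucan livers had 6.20, 7.01, 13.99, 20.4 and 18.1 CPM and CTRL livers had 7.87, 8.47, 12.4, 11.7 and 11.7 CPM. No library given WSD reached any library without it. The log2 fold change was -1.52 ± 0.29 in WSD against CTRL (edgeR, adjusted p = 0.000266), and WSD+beta-Glucan set against CTRL+beta-Glucan gave -1.50 ± 0.31 (edgeR, adjusted p = 0.00109). Within CTRL+beta-Glucan, the pair of libraries that stood apart were the lowest, at 6.20 and 7.01 CPM, against 13.99 to 20.4 CPM in the other 3. Without the 3 libraries, CTRL+beta-Glucan against CTRL was 0.75 ± 0.19 (edgeR, adjusted p = 0.36), against 0.34 ± 0.28 with them (edgeR, adjusted p = 0.877).

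Of the inhibitors, Angptl4 fell with WSD. Angptl4 (ENSMUSG00000002289, chr17:33773750-33781830, GRCm38) is induced in liver by fatty acids through PPAR receptors. It had 158, 167, 157 and 155 CPM in WSD+beta-Glucan livers and 136, 96.7, 97.8, 153 and 141 CPM in WSD livers. It had 249, 242, 261, 216 and 288 CPM in CTRL+beta-Glucan livers and 260, 289, 243, 196 and 189 CPM in CTRL livers. The groups given WSD did not overlap those without it, and the lowest WSD+beta-Glucan library lay just above the highest WSD library. The log2 fold change was -0.91 ± 0.13 in WSD against CTRL (edgeR, adjusted p = 1.31e-05) and -0.66 ± 0.14 between WSD+beta-Glucan and CTRL+beta-Glucan (edgeR, adjusted p = 0.0015). With library totals in place of TMM the second of these was -0.36 and missed the threshold (adjusted p = 0.0637). WSD+beta-Glucan against WSD was 0.35 ± 0.14 and did not pass (edgeR, adjusted p = 0.239).

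Angptl8 varied widely within groups, with a coefficient of variation of 52.7% in CTRL+beta-Glucan and 58.05% in CTRL. Angptl8 (chr9:21835510-21837347, GRCm38) is induced by feeding and insulin, and lies within Dock6 on the other strand. Whether reads were assigned by strand is not given in the sources used here, so reads of the pair may not be fully separated. The levels were 28.2, 21.3, 25.8 and 21.01 CPM in WSD+beta-Glucan livers and 47.5, 41.0, 45.9, 29.99 and 26.1 CPM in WSD livers. They were 70.3, 75.0, 41.8, 43.8 and 11.5 CPM in CTRL+beta-Glucan livers and 15.6, 33.4, 13.5, 12.7 and 8.29 CPM in CTRL livers. Every pair of groups overlapped, and the WSD+beta-Glucan libraries lay closest together.

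Angptl8 rose in WSD against CTRL by 1.19 ± 0.41 on the log2 scale (edgeR, adjusted p = 0.0217), a call that ended without CTRL replicate 5 (1.02, adjusted p = 0.0551). In CTRL+beta-Glucan against CTRL the value was 1.54 ± 0.41, with an unadjusted p of 0.00175 but an adjusted p of 0.719 (edgeR), and 0.96 ± 0.44 without the 3 libraries (adjusted p = 0.766). The 2 CTRL+beta-Glucan libraries that stood apart were the highest of all 19. Against CTRL+beta-Glucan, the WSD+beta-Glucan value was -1.01 ± 0.43 (edgeR, adjusted p = 0.0809). That value passed without CTRL+beta-Glucan replicate 5 (-1.26, adjusted p = 0.00937) and without CTRL replicate 2 (-1.01, adjusted p = 0.0482), and was -0.51 ± 0.50 without the 3 libraries (adjusted p = 0.49). The difference between the beta-Glucan effects was -2.2 ± 0.59 (edgeR, adjusted p = 0.188). It passed with DESeq2 (-2.23, adjusted p = 0.034) and without CTRL+beta-Glucan replicate 5 (-2.45, edgeR adjusted p = 0.0278).

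Gpihbp1, which binds lipoprotein lipase on capillary endothelium, rose in WSD livers. It had 17.2, 15.1, 11.2 and 14.4 CPM in WSD+beta-Glucan livers and 18.1, 18.9, 18.8, 15.3 and 15.8 CPM in WSD livers. It had 10.6, 12.2, 15.9, 14.9 and 8.95 CPM in CTRL+beta-Glucan livers and 15.5, 10.7, 12.4, 7.16 and 8.50 CPM in CTRL livers. WSD and CTRL overlapped only through CTRL replicate 1, whose 15.5 CPM lay above the lowest WSD library. The log2 fold change was 0.68 ± 0.18 in WSD against CTRL (edgeR, adjusted p = 0.00406) and 0.21 ± 0.19 in WSD+beta-Glucan against CTRL+beta-Glucan (edgeR, adjusted p = 0.425). WSD+beta-Glucan against WSD gave -0.26 ± 0.19 (edgeR, adjusted p = 0.519).

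Endothelial markers were also higher in WSD. In WSD against CTRL, where 26.0% of all genes tested were higher, 7 of 8 general endothelial markers and 3 of 5 sinusoidal markers rose. Their summed levels were 83.3 to 129 CPM and 130 to 190 CPM in WSD, against 38.3 to 100 CPM and 43.5 to 136 CPM in CTRL. All 4 markers of capillaries and large vessels rose as well, with summed levels of 203 to 267 CPM in WSD, against 64.2 to 101 CPM in CTRL. The largest part of that sum was Cd36, at a mean of 159 CPM in WSD and 45.8 CPM in CTRL. Cd36 is also counted below among the genes that take up or bind fatty acids. None of the 3 lists had a gene that passed in WSD+beta-Glucan against WSD, where 0.39% of all genes passed. In WSD+beta-Glucan against CTRL+beta-Glucan, where Gpihbp1 did not pass, 3 of 4 capillary and large-vessel markers were higher, Cd36 among them. So were 1 of 8 general and 1 of 5 sinusoidal markers, and 19.1% of all genes. CTRL replicate 1, the CTRL library with the most Gpihbp1, also had the highest sinusoidal sum of its group, at 136 CPM. The part of the number of endothelial cells in the Gpihbp1 level was not tested.

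The 2 activators moved in opposite directions under WSD. Apoc2 (chr7:19671579-19677941, GRCm38) had 576, 488, 556 and 526 CPM in WSD+beta-Glucan livers and 685, 634, 573, 598 and 653 CPM in WSD livers. It had 399, 237, 343, 251 and 331 CPM in CTRL+beta-Glucan livers and 292, 305, 349, 276 and 258 CPM in CTRL livers. Apoc2 rose by 1.09 ± 0.12 in WSD against CTRL (edgeR, adjusted p = 6.18e-07) and by 0.78 ± 0.13 in WSD+beta-Glucan against CTRL+beta-Glucan (edgeR, adjusted p = 0.00014), with no overlap in either contrast. WSD+beta-Glucan against WSD gave -0.23 ± 0.13 (edgeR, adjusted p = 0.405), and the lowest WSD library lay below the highest WSD+beta-Glucan library.

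Apoa5 (chr9:46268633-46271919, GRCm38) had 1111, 1149, 1286 and 1487 CPM in WSD+beta-Glucan livers and 974, 996, 942, 1220 and 1098 CPM in WSD livers. It had 2943, 2647, 2868, 2056 and 2226 CPM in CTRL+beta-Glucan livers and 2300, 2372, 2750, 2367 and 2358 CPM in CTRL livers. The groups with and without WSD did not overlap. Apoa5 fell by 1.22 ± 0.12 in WSD against CTRL (edgeR, adjusted p = 8.45e-08) and by 1.02 ± 0.13 in WSD+beta-Glucan against CTRL+beta-Glucan (edgeR, adjusted p = 7.51e-06). WSD+beta-Glucan against WSD gave 0.27 ± 0.12 (edgeR, adjusted p = 0.301). Of 8 hepatocyte markers, 6 fell in WSD against CTRL with TMM, where 27.1% of all genes fell (4 markers fell and 1 rose with library totals). The summed level of the markers was 52630 to 68060 CPM in WSD, against 103500 to 141800 CPM in CTRL. The largest part of that sum was Alb, at a mean of 38550 CPM in WSD and 83730 CPM in CTRL. Over the 8 markers the median log2 fold change was -0.74 with TMM and -0.28 with library totals. The part of hepatocyte number in the levels of Apoa5 and Angptl4 was not tested.

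Lmf1, the folding factor of the lipases, did not pass the test in any contrast with TMM scaling. It had 51.2, 43.8, 47.9 and 49.3 CPM in WSD+beta-Glucan livers and 50.2, 41.8, 48.7, 45.5 and 41.5 CPM in WSD livers. It had 59.8, 57.8, 41.1, 38.6 and 39.2 CPM in CTRL+beta-Glucan livers and 47.7, 48.1, 51.6, 50.7 and 43.5 CPM in CTRL livers. The first 2 CTRL+beta-Glucan values are those of the libraries that stood apart, and the other 3 lay below every CTRL library. WSD against CTRL was -0.09 ± 0.11 (edgeR, adjusted p = 0.543), but 0.38 with library totals (adjusted p = 0.00249), where the median of all genes is 0.43. WSD+beta-Glucan against CTRL+beta-Glucan was 0.02 ± 0.12 (edgeR, adjusted p = 0.892), and 0.25 ± 0.09 without the 3 libraries (adjusted p = 0.0564).

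Of the 8 members other than Lpl, 3 were higher and 3 lower in WSD than in CTRL at an adjusted p under 0.05, and 5 higher and 3 lower with library totals. Of all tested genes 53.0% passed there with TMM, 26.0% higher and 27.1% lower. The share of all genes passing with library totals is not given here, and their median log2 fold change was then 0.43. The libraries of these groups did not overlap in 4 of the 8 and in 38.4% of all genes. Against CTRL+beta-Glucan, 1 of the 8 was higher and 3 were lower in WSD+beta-Glucan with TMM, where 34.3% of all genes passed, 19.1% higher and 15.2% lower. With library totals 2 of the 8 were higher and 2 lower, at a median of 0.28 over all genes. The libraries of these groups did not overlap in 4 of the 8 and in 25.2% of all genes. Against WSD, none of the 8 passed in WSD+beta-Glucan with edgeR or DESeq2 and 2 had an unadjusted p under 0.05, where 0.39% of all genes passed, and the libraries did not overlap in Angptl4 and in 7.42% of all genes. Against CTRL, 1 was higher and 3 were lower in WSD+beta-Glucan, where 38.3% of all genes passed, 20.8% higher and 17.5% lower. None of the 8 passed in CTRL+beta-Glucan against CTRL or in the difference of the beta-Glucan effects (edgeR), where 0.00736% of all genes passed in each. At an unadjusted p under 0.05, Angptl8 alone passed in each of these, and DESeq2 called 0 of the 8 in the first and 1 in the second. The contrasts share libraries, and since the list was drawn up with results known, these counts are a description only.

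**Figure D3:**
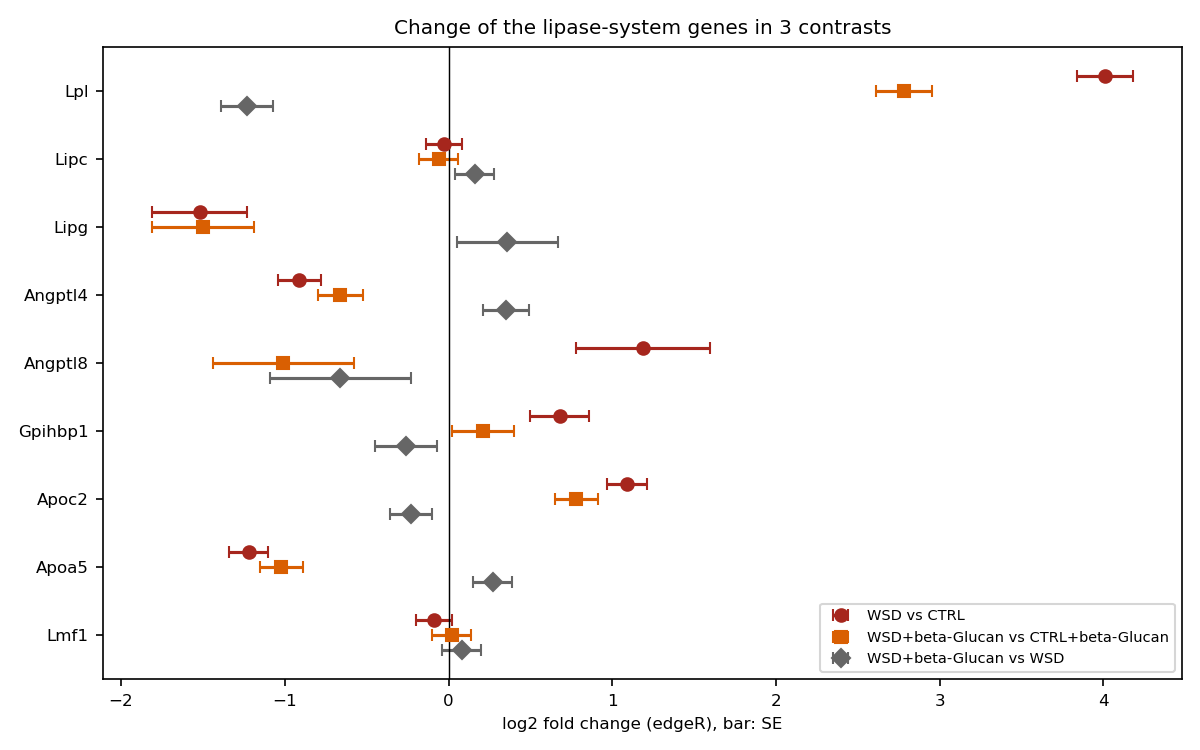
Log2 fold changes (horizontal axis, edgeR) with their SE for the 9 genes in WSD against CTRL, in WSD+beta-Glucan against WSD, and between WSD+beta-Glucan and CTRL+beta-Glucan. Lpl has the largest values, 4.01, -1.23 and 2.78, and Lipc and Lmf1 lie near 0 in all 3 contrasts with TMM scaling.

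Per unit of transcript length, the order of the genes changed with WSD. On the deposited TPM scale, which divides reads by transcript length, Lpl averaged 32.0 ± 7.27 TPM in WSD+beta-Glucan (SD, n = 4), 83.6 ± 7.32 TPM in WSD, 3.81 ± 0.329 TPM in CTRL+beta-Glucan and 3.75 ± 0.963 TPM in CTRL (n = 5 each). Lipc averaged 121 ± 14.5 TPM in WSD and 90.2 ± 12.5 TPM in CTRL, so that the mean of Lpl was well below that of Lipc in CTRL and nearer to it in WSD. Lipg was the lowest member in WSD, at 1.42 ± 0.338 TPM, and overlapped Lpl in CTRL, at 2.89 ± 0.557 TPM. Apoc2 and Apoa5 were the most abundant members in every group. Apoc2 averaged 1774 ± 190 TPM and Apoa5 791 ± 111 TPM in WSD, whereas Apoc2 averaged 594 ± 70.9 TPM and Apoa5 1483 ± 137 TPM in CTRL. The ranges of the pair did not overlap in either group, with Apoc2 the higher in WSD and Apoa5 the higher in CTRL.

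Reads were also compared between the transcripts of a gene. Lpl-201 took 99.4% of the estimated reads of Lpl, Apoc2-201 97.4% of those of Apoc2 and Apoa5-201 89.8% of those of Apoa5. In 3 members a second transcript held at least 10% of the reads, and the share of the leading one was compared by a two-sided exact permutation test in 5 contrasts each, 15 tests in all. None passed after Benjamini-Hochberg adjustment, and the smallest p the design allows is 0.00794 for 5 against 5 libraries and 0.0159 for 4 against 5. Over 15 tests, a single share at that smallest p could not pass the adjustment unless other shares were also near it. That none passed therefore cannot decide whether the share of any single transcript changed. Angptl4-202 took 78.9% of the reads of Angptl4 and Gpihbp1-201 79.4% of those of Gpihbp1, with no difference between group means above 1.75 percentage points for either.

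Angptl4-202, which led in all 19 libraries, is annotated as a target of nonsense-mediated decay. It lacks 4 bases at the start of exon 3 that the protein-coding Angptl4-201 has, and it is also shorter by 287 bases at the 5′ end and by 1158 bases at the 3′ end. The junction of exons 2 and 3 is shown because the frame of the 2 transcripts parts there, with the 4 bases in capitals. How many of the reads crossed this junction was not analysed here, and the estimate may rest on the ends as much as on the 4 bases.
Angptl4-201: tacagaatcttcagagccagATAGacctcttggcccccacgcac
Angptl4-202: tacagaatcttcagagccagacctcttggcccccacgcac

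Lmf1-206, also annotated as a target of nonsense-mediated decay, lacks exons 2 and 3 of Lmf1-202, which are 310 and 11 bases long. Its share of the Lmf1 reads was 22.96%, 16.7%, 17.6% and 0% in WSD+beta-Glucan and 48.8%, 10.6%, 12.0%, 27.5% and 18.3% in WSD. It was 27.99%, 20.4%, 26.7%, 0% and 7.83% in CTRL+beta-Glucan and 8.55%, 10.2%, 10.7%, 8.89% and 3.15% in CTRL. WSD replicate 1 stood highest, with 531 estimated reads of Lmf1-206, and the libraries at 0% had none. The leading Lmf1-202 held 74.4% ± 16.0 in WSD and 89.3% ± 3.45 in CTRL (SD, n = 5 each), a difference of -14.98 percentage points (exact permutation p = 0.0238, adjusted p = 0.357). The difference was -8.40 without WSD replicate 1 (exact permutation p = 0.0476, adjusted p = 0.714), and neither value passed.

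**Figure D4:**
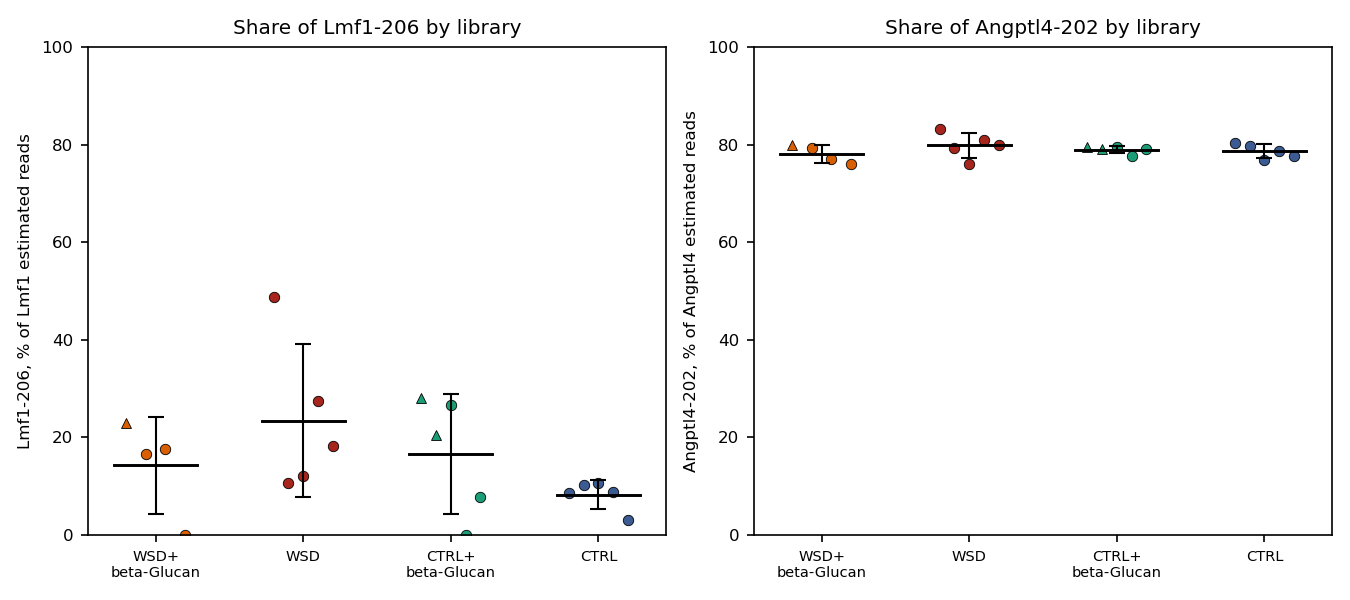
Share of Lmf1-206 among Lmf1 reads (left) and of Angptl4-202 among Angptl4 reads (right), in percent, 1 point per library, with mean and SD per group and triangles for the 3 libraries that stood apart. Lmf1-206 runs between 0% and 48.8%, while Angptl4-202 stays near 78.9% in all 4 groups.

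Genes that act with the lipases were taken from 9 lists of 56 genes, of which 49 passed the filter. In WSD against CTRL 11 were higher and 20 lower, with a median of -0.24 against -0.04 over all genes tested. Over all genes tested, 26.0% were higher and 27.1% lower with TMM, shares that also apply to the single lists below. With library totals the split in the lists was 23 higher and 4 lower, where the median of all genes was 0.43. None of the 49 passed in WSD+beta-Glucan against WSD (edgeR), where 0.39% of all genes passed, and 9 had an unadjusted p under 0.05. Fabp5 fell with DESeq2, with limma-voom and with only the groups compared, and Slc27a1 rose with a term for the 3 libraries, both named after their values were seen. Between WSD+beta-Glucan and CTRL+beta-Glucan, 8 list genes were higher in WSD+beta-Glucan and 9 lower, where 19.1% of all genes were higher and 15.2% lower. There, 6 were higher and 4 lower without the 3 libraries, and 13 were higher and 0 lower with library totals.

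Among genes that fold or sort the lipases, 1 of 7 rose and 4 fell in WSD against CTRL with TMM, and 2 rose and none fell with library totals. Sorl1, a sorting receptor that binds lipoprotein lipase, averaged 5.77 ± 0.889 CPM in WSD and 1.37 ± 0.507 CPM in CTRL (SD, n = 5 each), a log2 fold change of 2.07 ± 0.32. Sel1l, the degradation adaptor that partners Lmf1 in lipase maturation, changed by -0.66 ± 0.11, and the chaperone Canx by -0.43 ± 0.09. Of 4 proprotein convertases, which cleave lipases or ANGPTL proteins, none rose and 2 fell with TMM, Pcsk7 by 0.57 ± 0.08 and Furin by 0.47 ± 0.09, while 2 rose and none fell with library totals. Of 3 tested genes of the ANGPTL family outside the members 2 rose, among them Angptl2 by 1.41 ± 0.30. Of 3 other APOC genes 1 fell with TMM, Apoc4, by 0.52 ± 0.12, and with library totals 2 rose and none fell. With library totals Sel1l was at -0.19, Canx at 0.04, Pcsk7 at -0.10 and Apoc4 at -0.06, and none of these passed, whereas Sorl1 (2.54) and Angptl2 (1.89) did. Of 6 relatives of the lipase family only Pla1a passed the filter, at -0.07 with TMM and 0.39 with library totals.

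Receptors and carriers of the released products split. Of 6 genes of surface binding and remnant uptake, Vldlr, which takes up triglyceride-rich particles together with lipoprotein lipase, rose by 1.97 ± 0.50 and the heparan sulfate proteoglycan Hspg2 by 0.73 ± 0.18, while Sdc1, the remnant-binding syndecan of hepatocytes, fell by 0.84 ± 0.14. With library totals 5 of these 6 rose and Sdc1 still fell, by 0.38. Of 8 genes that take up or bind fatty acids, 3 rose and 3 fell with TMM, and 3 rose and none fell with library totals. Fabp4, a fatty acid carrier of adipocytes and macrophages, averaged 35.0 ± 8.97 CPM in WSD and 4.91 ± 1.48 CPM in CTRL (2.83 ± 0.25). Cd36, the fatty acid translocase, averaged 159 ± 27.0 CPM in WSD and 45.8 ± 5.76 CPM in CTRL (1.80 ± 0.24). Slc27a5, a bile acid and fatty acid ligase of hepatocytes, changed by -0.67 ± 0.13 with TMM and by -0.21 with library totals, which did not pass. Neither Fabp4 (-0.44 ± 0.24) nor Cd36 (0.20 ± 0.25) passed in WSD+beta-Glucan against WSD.

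Of 6 lipases that act inside the cell, none rose and 4 fell in WSD against CTRL with TMM, and none rose and 1 fell with library totals. Pnpla2, adipose triglyceride lipase, averaged 106 ± 14.2 CPM in WSD and 174 ± 14.3 CPM in CTRL (-0.72 ± 0.12). Ces1d changed by -1.01 ± 0.21 and Lipe, hormone-sensitive lipase, by -0.36 ± 0.12. With library totals Ces1d was at -0.55 and passed, while Pnpla2 at -0.26 and Lipe at 0.10 did not. Of 11 transcription factors known to act on member genes, 3 rose and 5 fell with TMM, and 5 rose and 2 fell with library totals. Srebf1, the insulin-responsive driver of fat synthesis, rose by 1.71 ± 0.18 and Pparg, the adipogenic PPAR that acts on Lpl, by 1.13 ± 0.13. Creb3l3, which acts on Apoa5 and Apoc2, fell by 0.79 ± 0.09, and these 3 passed in the same direction under both scalings. With TMM, adjusted p-values of the genes named from these lists were at most 0.0155 in WSD against CTRL (edgeR), except Pla1a and Slc27a1. Slc27a1 was at -0.55 ± 0.33 there (edgeR, adjusted p = 0.168).

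**Figure D5:**
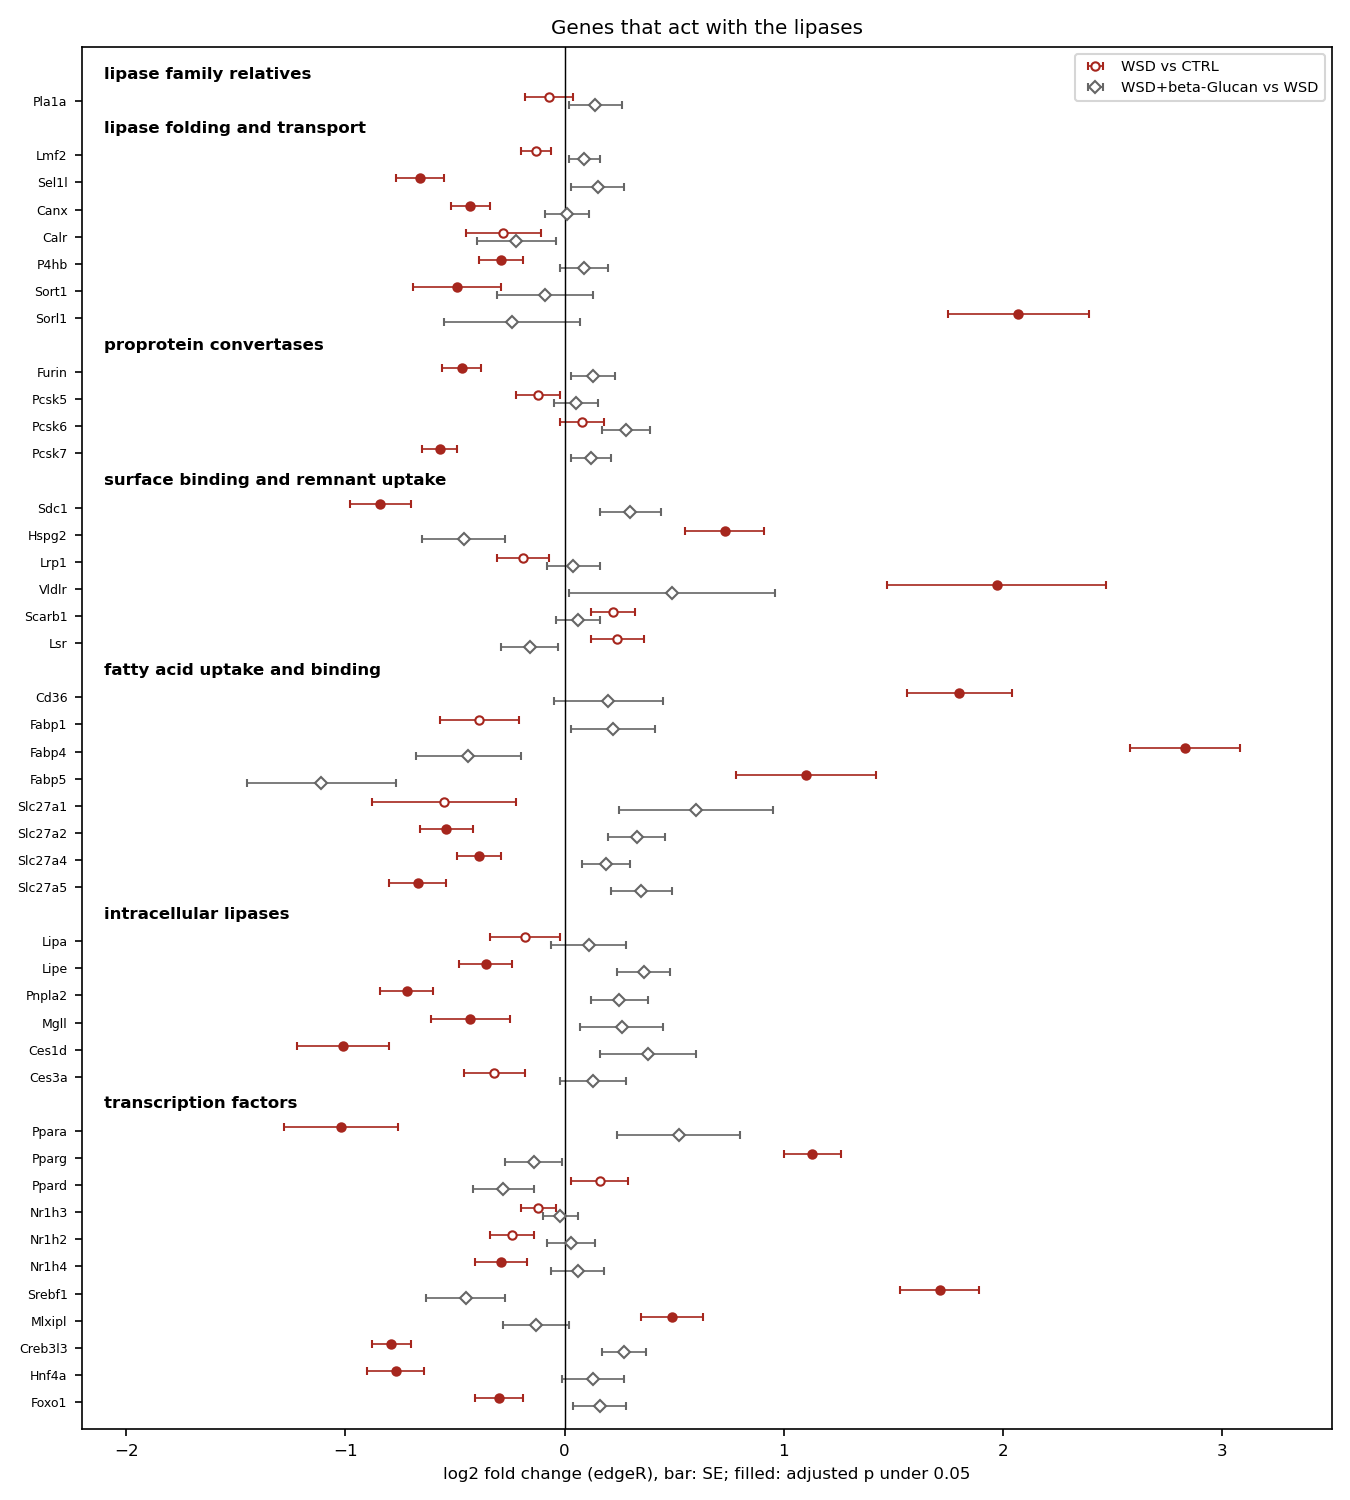
Log2 fold changes (horizontal axis, edgeR) with their SE for tested genes of 7 of the lists, in WSD against CTRL (circles) and in WSD+beta-Glucan against WSD (diamonds), filled where the adjusted p was under 0.05. No diamond is filled, and Fabp4 at 2.83 lies farthest to the right.

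To show which genes varied most like each member among livers of one group, each group mean was subtracted and Pearson's r taken over the 19 libraries, which share depth and scaling between genes, so these are descriptions. The genes named have the highest r among all protein-coding genes compared, and values picked in this way run high by the choice itself. Lpl went most closely with Emp3 (r = 0.81), Pdcd2l (0.76), Spsb1 (0.76), Tgif1 (0.75) and Fam241a (0.73). With the 2 farthest libraries left out, these values for Lpl ran from 0.58 (Tgif1) to 0.77 (Emp3). Gpihbp1 went with Oit3 (0.95), a gene of the sinusoidal endothelium list, and with Gpr182 (0.93) and Npr1 (0.92). Apoa5 went with Pnpla2 (0.85), Alas1 (0.82) and Uqcrc1 (0.79), and Apoc2 with Nsun5 (0.88), Dusp23 (0.86) and Ifi35 (0.85). Lipc went with Galm (0.86), Hsd3b3 (0.83) and Hsd3b2 (0.83), the last pair being near-identical genes whose reads may be shared. Angptl4 went with Msmp (0.77), Tprgl (0.75) and Slamf1 (0.75). For Angptl8 the closest were Dll1 (0.94), Sp110 (0.88) and Nab2 (0.86), for Lipg Snrk (0.90), Celf2 (0.90) and Wdr76 (0.89), and for Lmf1 Vtn (0.93), Os9 (0.92) and Slc13a3 (0.91). These last 3 members are those in which the libraries that stood apart differed most, and among members the strongest pairings were theirs as well, with Lmf1 against Lipg at -0.76, Lmf1 against Angptl8 at 0.62 and Angptl8 against Lipg at -0.60.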

How the data were processed

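Estimated counts and TPM per transcript are the authors' Salmon output, as deposited for each library; the submitters' processing notes name Salmon 1.10.1, DESeq2 1.38.3 and build GRCm39, with no role for DESeq2. The transcript set and strand setting are not given in the sources used here. Per the labels' protocols, 500 ng of total RNA went into a stranded mRNA kit. Of 116546 transcripts, 115977 (99.51%) matched GENCODE M21 and were summed into 35498 genes; the other 569 held 0.0623% to 0.1095% of reads. Counts were rounded and tested with edgeR 4.0.16 (quasi-likelihood F test, filterByExpr, TMM factors 0.776 to 1.26, all 19 libraries in one fit), with Benjamini-Hochberg adjustment over 13594 genes within each contrast and a threshold of 0.05. The edgeR fit was run on simulated counts for WSD+beta-Glucan against WSD only, with genes changed in WSD+beta-Glucan alone. Its outcome is not given here. Broad changes with WSD, the transcript shares and the correlations were not simulated. Transcript shares were tested by exact permutation (scipy 1.17.1). Alternatives were RLE scaling, no filter, DESeq2 1.42.0, limma-voom 3.58.1, an effective-length offset, only the groups compared, leaving out each library, leaving out or adding a term for the 3 libraries, and library totals without TMM, the last added after seeing the data. Members and lists were chosen with earlier results of these data known. Genes named were all members, the up to 3 list genes with the smallest p among those that passed, and the 5 (Lpl) or 3 closest protein-coding genes by within-group correlation; not every gene the rule gives is reported here. Replicates were numbered in accession order. No pair of libraries held identical counts (0 pairs).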

Additional observations from a re-analysis of the deposited data

Results flagged for a closer look

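In 3 of 48 sets of 4 or 5 libraries examined, 1 library lay far from the rest of its group, measured by its gap to the nearest library over the range of the group. Chance gives about 5% of such sets. Lipc stood at 166.8 CPM in WSD+beta-Glucan replicate 1, one of the 3 libraries that stood apart, against 131.4 to 133.0 CPM in the other 3. Apoa5 stood at 2750 CPM in CTRL replicate 3, above the other 4. The share of Angptl4-202 was 77.65% in CTRL+beta-Glucan replicate 4, the lowest of its group.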

How the results depend on the processing

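Over 32 results on members and 28 settings, 856 of 894 values were counted as unchanged. That meant the same direction and side of the threshold, except for Lpl in contrasts that include a group given WSD. Those Lpl contrasts are described with no test and were not set against the threshold. They counted as unchanged where the sign held and the shift was smaller than the SE. Of the other values, 2 lost and 5 gained a call, and 29 changed sign. The remaining 2, both of Lpl, moved with library totals in place of TMM: 4.48 in WSD against CTRL and 3.09 in WSD+beta-Glucan against CTRL+beta-Glucan. The changes of call are given beside the results. Sign changes were in values near 0 or under library totals. Lipc in WSD against CTRL was 0.0017 with RLE scaling and with DESeq2, 0.01 with only the groups compared, 0.43 with library totals, and -0.09 to 0.04 when 1 library was left out. Lipc in WSD+beta-Glucan against CTRL+beta-Glucan was 0.24 with library totals and 0.01 with the effective-length offset. Lmf1 was 0.38 with library totals in WSD against CTRL, and in WSD+beta-Glucan against WSD -0.08 with library totals and -0.02 with a term for the 3 libraries. Between WSD+beta-Glucan and CTRL+beta-Glucan it ran between -0.04 and 0.12 when 1 library was left out, and was 0.34 with library totals (adjusted p = 0.0139). Lpl in CTRL+beta-Glucan against CTRL was 0.01 with RLE scaling, no filter, DESeq2 and only the groups compared, 0.0043 with library totals, 0.00081 with limma-voom, 0.0045 with the effective-length offset, and -0.11 to 0.12 when 1 library was left out. Of the 8 members other than Lpl, those passing numbered 8 in WSD against CTRL and 4 in WSD+beta-Glucan against CTRL+beta-Glucan with library totals, and in the difference of the beta-Glucan effects 1 with DESeq2 and 0 to 1 when 1 library was left out. In WSD+beta-Glucan against CTRL they numbered 6 with library totals and 4 to 5 when 1 library was left out. Genes of the lists passing numbered 27 with library totals in WSD against CTRL. Between WSD+beta-Glucan and WSD they numbered 1, lower, with DESeq2, limma-voom and only the groups compared, and 1, higher, with a term for the 3 libraries. Between WSD+beta-Glucan and CTRL+beta-Glucan they numbered 13 with library totals and 10 without the 3 libraries, in the difference 1 with DESeq2, and in WSD+beta-Glucan against CTRL 18 with library totals. Library totals move the median of all genes by their own construction; the cause of the other changes was not tested. No paired analysis was possible because the replicate numbers follow accession order and pair no samples. Lipg had the fewest reads per library in WSD, at a mean of 3.63 CPM, while Angptl8 had the largest standard errors of log2 fold change, 0.41 to 0.59.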
